A study of Canis lupus familiaris with 17 samples.

Results

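The transcripts examined here encode 6 genes of DNA replication and of the E2F transcription factor that controls it, namely Rrm2, Mcm2, Mcm5, E2f1, E2f4 and Tfdp1. They were chosen by gene name from the study's own table of transcripts that differed between scribble knockdown and control cells, which gives all 6, and each name belonged to 1 of the 21571 transcripts in every file. Their identifiers are XM_540076.3 for Rrm2, XM_541736.4 for Mcm2, XM_848041.3 for Mcm5, XM_542963.3 for E2f1, XM_848882.2 for E2f4 and XM_844504.2 for Tfdp1. Because that table was made from these same libraries, a count of members that fell on knockdown is not independent evidence of a fall.

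The study profiled polyadenylated RNA of MDCK-II cells, a dog kidney epithelial line, to find genes linked to the sensitivity of scribble knockdown cells to crowding. All 3 populations derive from MDCK cells that carry a tetracycline-inducible short hairpin RNA against scribble, a polarity gene, and each was plated at 1300000 cells per dish and harvested 67 h later. Control cells were that line without tetracycline (6 libraries), scribKD cells were that line with 10 µg/ml tetracycline from plating (6 libraries), and scribRES cells were a competition-resistant isolate of it, also with 10 µg/ml tetracycline (4 libraries). The isolate is the single population that remained after prolonged culture in tetracycline, so its 4 libraries sample 1 selection. Libraries came from 3 experiments with 2 libraries per population in each, so that replicates 1 and 2 belong to experiment 1, replicates 3 and 4 to experiment 2, and replicates 5 and 6 to experiment 3. No scribRES library came from experiment 1. The number of experiments, 3 for control and scribKD and 2 for scribRES, equals the number of biological replicates given in the study, and nothing in the labels says that the 2 libraries of an experiment were separate cultures. Each n below counts libraries, and SDs and p-values measure the spread between libraries, which may be partly technical; values with each experiment as 1 replicate are given beside the comparisons.

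Cells enter S phase when E2F transcription factors, bound to DNA as dimers with a DP protein such as the product of Tfdp1, are released from the retinoblastoma (RB) family. E2F1 is an activating member of the family and E2F4 is the member mostly associated with repression in resting cells. Their target genes include Mcm2 and Mcm5, which encode subunits of the hexameric MCM helicase that is loaded at origins and unwinds DNA at the fork, and Rrm2, which encodes the small subunit of ribonucleotide reductase, the enzyme that makes deoxyribonucleotides. The CDK inhibitor p21, encoded by Cdkn1a, a target of p53, acts upstream by keeping RB in its E2F-binding form. In bulk RNA, a smaller share of cells in S phase and less of these RNAs in each cell cannot be told apart.

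Values were RPKM, reads scaled to transcript length and library size, so levels can be compared between genes. Between 12612664 and 29002703 reads per sequencing run lay behind them, with a median per library of 16368549 in experiment 2 and 20988428.5 in experiment 3. The targeted gene, Scrib, measured 28.9 ± 3.65 RPKM (SD, n = 6) in control, 12.9 ± 2.69 (n = 6) in scribKD and 13.3 ± 1.23 (n = 4) in scribRES. Every library with tetracycline lay below every control library, as its label says. Of the 7 epithelial markers with a named transcript among the 18 listed, Krt19, Cldn2, Ocln and Pax8 were above 10.6 RPKM in every library, whereas Krt7 and Cdh16 never passed 6.55 RPKM. Of the 8 fibroblast markers 1 had a named transcript, Dcn, at no more than 0.0560 RPKM in any library. No marker of blood cells or endothelium had a named transcript.

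In control cells the members spanned a wide range of levels. Rrm2 was highest, at 554 ± 136 RPKM (SD, n = 6), and its lowest control library (444 RPKM) lay above the highest library of any other member. Mcm5 measured 97.7 ± 24.7 RPKM in control, E2f4 59.3 ± 11.3, Mcm2 50.4 ± 13.8 and Tfdp1 42.6 ± 8.55 (SD, n = 6 each). E2f1 was lowest, at 13.4 ± 1.82 RPKM (SD, n = 6). The control ranges of E2f4, Mcm2 and Tfdp1 overlapped between libraries, but within each of the 6 control libraries E2f4 was above Mcm2 and Mcm2 above Tfdp1. Mcm5 and E2f1 stood clear of that stretch. The member with the fewest reads was E2f1, with 240 to 1189 reads per library, which gives a counting error of 6.46% at the lowest. Rrm2 had 2913 to 29742 reads per library.

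Proportions between members varied between libraries to different degrees. Rrm2 stood at 5.26 to 6.11 times the RPKM of Mcm5 in control libraries. That proportion was 4.02 to 5.19 in scribKD and 3.63 to 6.12 in scribRES libraries. Mcm5 stood at 1.86 to 2.04 times the RPKM of Mcm2 in control libraries, at 1.40 to 1.96 times in scribKD libraries and at 1.68 to 1.82 times in scribRES libraries. E2f4 stood at 3.89 to 5.10 times the RPKM of E2f1 in control, at 2.92 to 4.05 times in scribKD and at 2.80 to 3.70 times in scribRES. Over the 16 libraries, the correlation of log2(RPKM + 0.1) was 0.984 (Pearson) between Mcm2 and Mcm5 and 0.717 between E2f1 and Tfdp1, the extremes among the 15 pairs. These libraries share populations and experiments, and the coefficients describe them only.

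**Figure D1:**
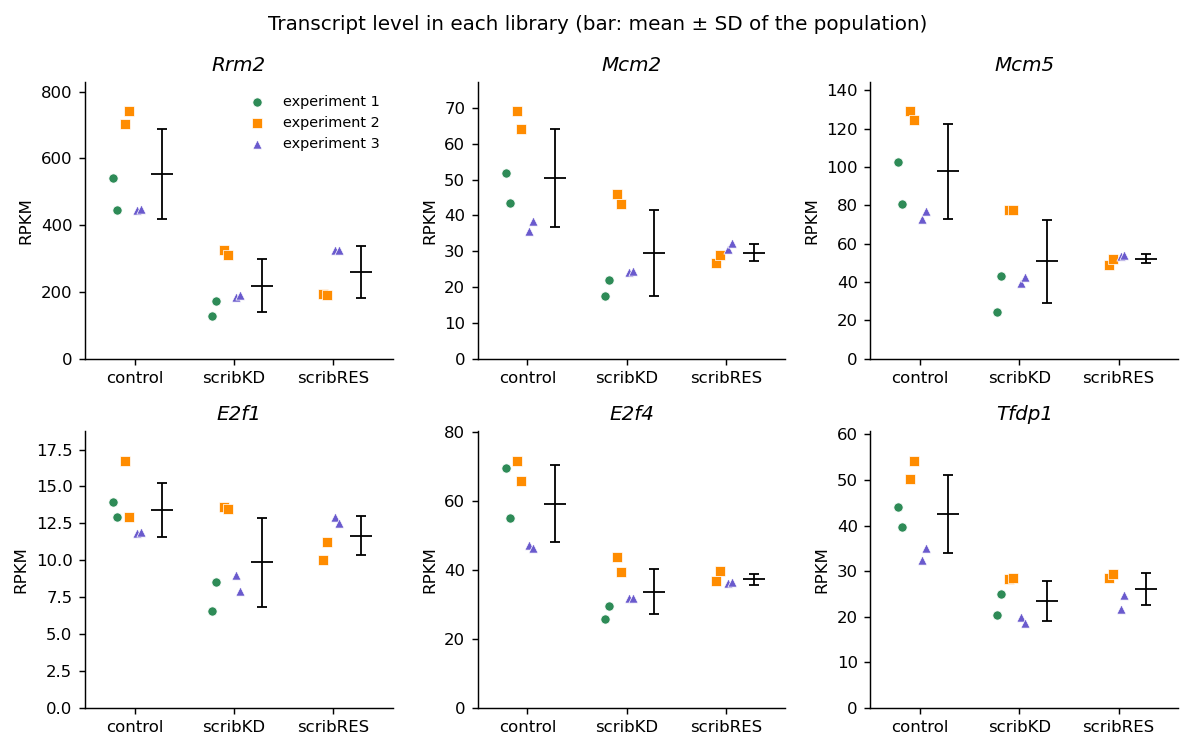
RPKM of each member (y axis, from 0) in every library of control, scribKD and scribRES cells, with 1 point per library, its shape and colour giving the experiment, and a bar at the mean ± SD of the population. Experiment 2 (squares) holds the highest control and scribKD libraries of every member, whereas in scribRES cells Rrm2 is lower in experiment 2 (189 and 193 RPKM) than in experiment 3 (326 and 326 RPKM).

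The first comparison asked which of these genes differed once scribble was silenced. In scribKD cells 5 of the 6 members were called lower than in control (limma, adjusted p under 0.05 and a change above 0.5 on the log2 scale), against a background of 5.27% of 9691 transcripts tested. Rrm2 fell most, by 1.39 on the log2 scale, followed by Mcm5, Tfdp1, Mcm2 and E2f4, and E2f1 did not pass the test. All 6 members passed the filter on low values. Their median log2 fold change was -0.84, and that of all transcripts tested was 0.02.

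Rrm2, the nucleotide reductase subunit, ranged from 444 to 741 RPKM in control with a median of 495, and from 127 to 324 RPKM in scribKD with a median of 188. Every scribKD library was below every control library. The mean in scribKD was 39.5% of the control mean, and the log2 fold change was -1.39 (SE 0.22, limma adjusted p = 0.00065). By this fold change Rrm2 ranked 15th from the lowest of the 9691 transcripts. The groups did not overlap in this way, lower in every library, for 5.85% of the transcripts tested.

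The MCM helicase subunits fell by less and their groups overlapped. Mcm5 ranged from 72.7 to 129 RPKM in control (median 91.7) and from 24.4 to 77.5 RPKM in scribKD (median 42.6). The overlap came from the scribKD libraries of experiment 2, at 77.5 RPKM in both, which lay above the control libraries of experiment 3, at 72.7 and 76.8 RPKM. Its log2 fold change was -1.02 (SE 0.26, limma adjusted p = 0.012). Mcm2 ranged from 35.7 to 69.0 RPKM in control (median 47.6) and from 17.5 to 46.0 RPKM in scribKD (median 24.4). Again the scribKD libraries of experiment 2, at 46.0 and 43.2 RPKM, were above both control libraries of experiment 3. Its log2 fold change was -0.82 (SE 0.24, limma adjusted p = 0.026). Without a block, this call was lost on leaving out any one of control replicates 3 or 4 or scribKD replicates 1, 2, 5 or 6 (adjusted p = 0.051 to 0.061). With experiment as a replicate block and all libraries, Mcm2 and Mcm5 were both called lower (limma adjusted p = 3.7e-05 and 4.9e-05).

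Among the E2F and DP genes, E2f4 and Tfdp1 fell without overlap and E2f1 did not pass. E2f4 ranged from 46.4 to 71.8 RPKM in control (median 60.5) and from 25.9 to 43.7 RPKM in scribKD (median 31.9). Its scribKD mean was 56.9% of the control mean, a log2 fold change of -0.81 (SE 0.15, limma adjusted p = 0.0015). Tfdp1, the DP partner, ranged from 32.5 to 54.2 RPKM in control (median 41.9) and from 18.5 to 28.5 RPKM in scribKD (median 22.7). All its scribKD libraries were below all control libraries, and the log2 fold change was -0.86 (SE 0.15, limma adjusted p = 0.0011). E2f1 ranged from 11.8 to 16.7 RPKM in control (median 12.9) and from 6.54 to 13.6 RPKM in scribKD (median 8.78), and the groups overlapped through the scribKD libraries of experiment 2, at 13.6 and 13.5 RPKM. Its log2 fold change was -0.48 (SE 0.17, limma adjusted p = 0.058). With experiment as a replicate block its adjusted p was 0.0028 (limma), and only the 0.5 limit kept it from being called. The same held within experiment 3, at an adjusted p of 0.0060 (limma). Leaving out scribKD replicate 3 or 4 took E2f1 to -0.58 in both cases and past the threshold (adjusted p = 0.021 and 0.023).

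Most members also passed within each experiment on its own. Of the 6 members, 6 were called lower within experiment 1 (background 7.96%), 5 within experiment 2 (7.35%) and 5 within experiment 3 (9.42%), with 2 libraries against 2 in each. Rrm2 differed by -1.73, -1.18 and -1.25 on the log2 scale in experiments 1, 2 and 3. Tfdp1 was the most even, at -0.89, -0.88 and -0.80. E2f1 differed by -0.84, -0.12 and -0.49. A test of whether the difference itself changed with experiment (limma, population by experiment interaction) passed for Mcm2 only (adjusted p = 0.032), against 7.48% of all transcripts tested, and it was lost without any one of 9 of the 12 libraries, the exceptions being control replicates 2 and 3 and scribKD replicate 2. Without those 3 in turn, 3, 2 and 5 members passed.

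With only experiments 2 and 3 in the fit, the calls for Mcm2 (log2 fold change -0.59, limma adjusted p = 0.23) and Mcm5 (-0.79, adjusted p = 0.11) were lost. With each experiment reduced to 1 mean per population no member was called, while 157 of 10164 transcripts were. The limma adjusted p ran from 0.066 (Rrm2) to 0.27 (Mcm2) among the 5 called otherwise. Neither fit paired the populations by experiment, so shifts between experiments that the populations shared stayed in the spread. Within experiments 1, 2 and 3, Mcm2 differed by -1.27, -0.58 and -0.60 on the log2 scale.

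**Figure D2:**
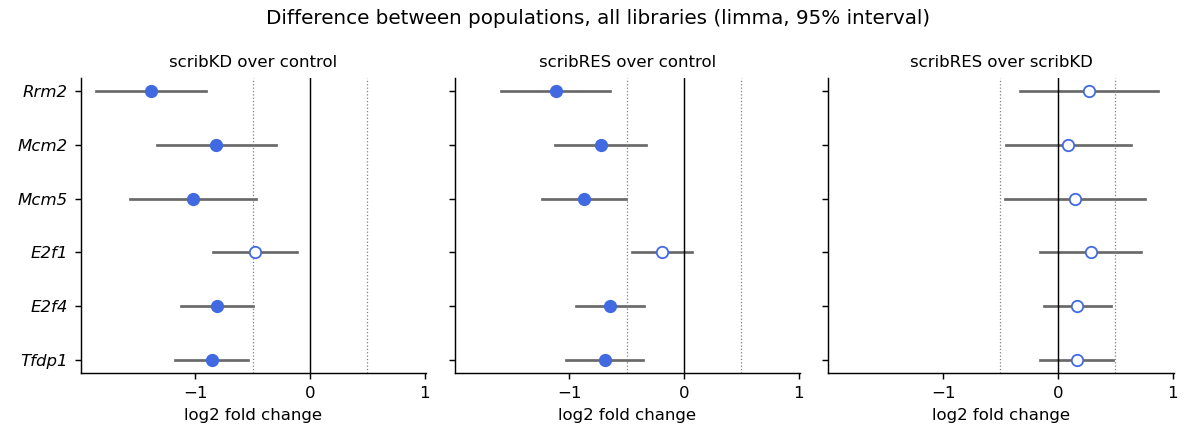
Log2 fold change of each member (x axis) in the 3 comparisons between populations over all libraries, with its 95% interval from limma; filled points are called, open points are not, and dotted lines mark 0.5 either way. In both comparisons with control 5 of 6 members are called lower and E2f1 is not, and in scribRES over scribKD all 6 intervals include 0.

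The second comparison asked whether the resistant cells, which also carry the knockdown, kept these lower levels. In scribRES cells 5 of 6 members were again called lower than in control, against a background of 3.65% of 10324 transcripts, and E2f1 was again the exception. This comparison uses the same control libraries as the first. The median log2 fold change of the members was -0.71, and that of all transcripts tested was 0.02.

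In scribRES the Rrm2 values were 193, 189, 326 and 326 RPKM, so that 2 libraries lay near the scribKD median of 188 and 2 lay above every scribKD library, and all 4 stayed below the lowest control library. The log2 fold change over control was -1.12 (SE 0.22, limma adjusted p = 0.0079). Mcm5 measured 48.6, 52.1, 53.3 and 54.1 RPKM, a log2 fold change of -0.87 (SE 0.17, adjusted p = 0.0075). Mcm2 measured 26.7, 28.8, 30.7 and 32.2 RPKM, a log2 fold change of -0.73 (SE 0.18, adjusted p = 0.023). Both helicase genes lay below all control libraries in a narrow band, and the call of Mcm2 was lost without scribRES replicate 3 (adjusted p = 0.076) or 4 (0.070). It was also lost with experiments 2 and 3 only (0.051), with all 3 populations in one fit (0.059) and with the replicate number as a block (0.059). It was kept with experiment as a replicate block (limma adjusted p = 0.011).

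E2f4 measured 37.0, 39.7, 36.2 and 36.6 RPKM in scribRES, a log2 fold change over control of -0.64 (SE 0.14, limma adjusted p = 0.011). Tfdp1 measured 28.5, 29.3, 21.7 and 24.8 RPKM, a log2 fold change of -0.69 (SE 0.15, adjusted p = 0.014). E2f1 measured 10.0, 11.2, 12.9 and 12.5 RPKM and overlapped with control, with a log2 fold change of -0.19 (95% interval -0.45 to 0.07, adjusted p = 0.28). For 5 of the 6 members every scribRES library was below every control library, which held for 7.81% of all transcripts tested.

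The size of this difference depended on the experiment. Within experiment 2, 5 of 6 members were called lower in scribRES than in control (background 15.4%), and within experiment 3, 1 was, Tfdp1 (background 5.05%). Rrm2 differed by -1.92 in experiment 2 and by -0.45 in experiment 3 on the log2 scale, Mcm5 by -1.33 and -0.48, and Mcm2 by -1.26 and -0.24. In experiment 3, Rrm2, Mcm5, Mcm2 and E2f4 had adjusted p of 0.0014, 0.0020, 0.035 and 0.0051 (limma) but changes under the 0.5 limit. The interaction with experiment passed for 5 of 6 members, against 39.1% of all transcripts tested. It measured 1.46 for Rrm2 (experiment 3 minus experiment 2, SE 0.08, adjusted p = 3.1e-06), 1.02 for Mcm2, 0.85 for Mcm5, 0.57 for E2f1 and 0.48 for E2f4, and 0.31 for Tfdp1 (adjusted p = 0.055). The result for E2f1 (adjusted p = 0.026) was lost without any one of control replicates 3, 5 or 6 or scribRES replicates 3, 5 or 6 (adjusted p = 0.052 to 0.089), and that for Tfdp1 was gained without control replicate 3 (0.045) or scribRES replicate 5 (0.035). With experiment means, again not paired by experiment, no member and none of 10624 transcripts was called by limma (10.7% had an unadjusted p under 0.05).

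The third comparison set the resistant isolate against the knockdown cells, which share both hairpin and tetracycline. Over all libraries none of the 6 members was called by limma against a background of 1.46% of 10342 transcripts. The study's own table of transcripts that differed between these populations, made with edgeR on counts, lists 2 of the 6. In the limma fit no member had an unadjusted p under 0.05, against 21.8% of the transcripts tested, and the groups overlapped for all 6. The log2 fold changes of scribRES over scribKD were 0.27 for Rrm2 (95% interval -0.33 to 0.87), 0.09 for Mcm2 (-0.45 to 0.64) and 0.15 for Mcm5 (-0.46 to 0.76). Those of the E2F and DP genes were 0.29 for E2f1 (-0.15 to 0.73), 0.17 for E2f4 (-0.12 to 0.46) and 0.17 for Tfdp1 (-0.15 to 0.48). These intervals include both no difference and, for Rrm2, Mcm2, Mcm5 and E2f1, a change beyond 0.5. With experiment as a replicate block, in which the scribKD libraries of experiment 1 bear only on the spread, the log2 fold changes were 0.03 for Rrm2, -0.16 for Mcm2, -0.12 for Mcm5, 0.12 for E2f1, 0.04 for E2f4 and 0.15 for Tfdp1, and again none was called. With experiment means, not paired by experiment, no member and none of 10619 transcripts was called by limma (4.28% had an unadjusted p under 0.05). The scribKD libraries are the same as in the first comparison.

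Within experiments the picture was different, and it ran in opposite directions. In experiment 2, Rrm2 measured 324 and 312 RPKM in scribKD and 193 and 189 RPKM in scribRES, a log2 difference of -0.74 (SE 0.04, limma adjusted p = 6.6e-05). In experiment 3 it measured 185 and 191 RPKM in scribKD and 326 and 326 RPKM in scribRES, a log2 difference of 0.80 (SE 0.04, adjusted p = 0.00073). The libraries of the populations did not overlap in either experiment. Between experiments 2 and 3 the level of Rrm2 differed by 0.76 on the log2 scale in scribKD, by 0.69 in control and by -0.77 in scribRES.

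The helicase genes were called lower in experiment 2 and did not pass the 0.5 limit in experiment 3, where their scribRES libraries lay above the scribKD libraries (limma adjusted p = 0.011 for Mcm2 and 0.0084 for Mcm5). Mcm2 measured 46.0 and 43.2 RPKM in scribKD and 26.7 and 28.8 RPKM in scribRES of experiment 2, a log2 difference of -0.68, and 24.2 and 24.6 against 30.7 and 32.2 RPKM in experiment 3, a log2 difference of 0.36. Mcm5 measured 77.5 and 77.5 RPKM in scribKD and 48.6 and 52.1 RPKM in scribRES of experiment 2, a log2 difference of -0.62, and 39.6 and 42.4 against 53.3 and 54.1 RPKM in experiment 3, a log2 difference of 0.39. Between experiments 2 and 3 the scribKD libraries differed by 0.87 (Mcm2) and 0.92 (Mcm5) on the log2 scale and the control libraries by 0.84 and 0.76, whereas the scribRES libraries differed by -0.18 and -0.09.

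E2f1 measured 13.6 and 13.5 RPKM in scribKD and 10.0 and 11.2 RPKM in scribRES of experiment 2, a log2 difference of -0.35, and 9.00 and 7.89 against 12.9 and 12.5 RPKM in experiment 3, a log2 difference of 0.59 (limma adjusted p = 0.010). E2f4 differed by -0.12 in experiment 2, with overlapping libraries, and by 0.19 in experiment 3. Tfdp1 differed by 0.03 in experiment 2 (limma adjusted p = 0.69) and 0.27 in experiment 3 (adjusted p = 0.064). It was the only member with a higher mean in scribRES in both, and it passed the test in neither.

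Called within experiment 2 were 3 members, Rrm2, Mcm2 and Mcm5, all lower (background 11.4% called lower). Within experiment 3, Rrm2 and E2f1 were called higher (background 3.97% called higher). Every scribRES library lay below every scribKD library in experiment 2 for 4 members (44.7% of all transcripts tested), and above in experiment 3 for all 6 (35.7%). In means, 5 of 6 members were lower in experiment 2 and higher in experiment 3, as were 20.0% of all transcripts. Rrm2 was the only member to pass 0.5 in both directions, as did 23 transcripts in all (0.222%).

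The test of the difference itself passed for 5 of 6 members, against 42.0% of all 10342 transcripts tested. It was 1.53 for Rrm2 (experiment 3 minus experiment 2, SE 0.05, limma adjusted p = 1.1e-06), which ranked 20th from the highest of all transcripts tested. Mcm2 followed with 1.05 (SE 0.08, adjusted p = 5.8e-05), Mcm5 with 1.01 (SE 0.08, adjusted p = 3.9e-05) and E2f1 with 0.94 (SE 0.13, adjusted p = 0.00062). For 95% of all transcripts this value was at most 0.65. E2f4 passed with 0.31 (SE 0.09, adjusted p = 0.022), and Tfdp1 did not with 0.24 (SE 0.10, adjusted p = 0.090). The result for E2f4 was lost without any one of scribKD replicates 3 or 5 or scribRES replicates 3, 5 or 6 (adjusted p = 0.052 to 0.075), under median-ratio scaling (0.060) and without a filter (0.056), and Tfdp1 passed without scribRES replicate 5 (0.033).

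Scrib moved the same way, with a log2 difference of scribRES over scribKD of -0.40 in experiment 2 and 0.24 in experiment 3 (interaction 0.64, SE 0.09, limma adjusted p = 0.00084). Its part in the result was not tested, and neither was that of depth, which was lower in experiment 2. Each direction was seen in 1 experiment, and what set the experiments apart besides their number is not given in the sources used here. Scrib was low in both populations and so does not check which of them a library came from. Going by the same labels, Cdkn1a was lower in scribRES than in scribKD in both experiments. Whether labels of the 2 populations were exchanged in an experiment was not tested.

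**Figure D3:**
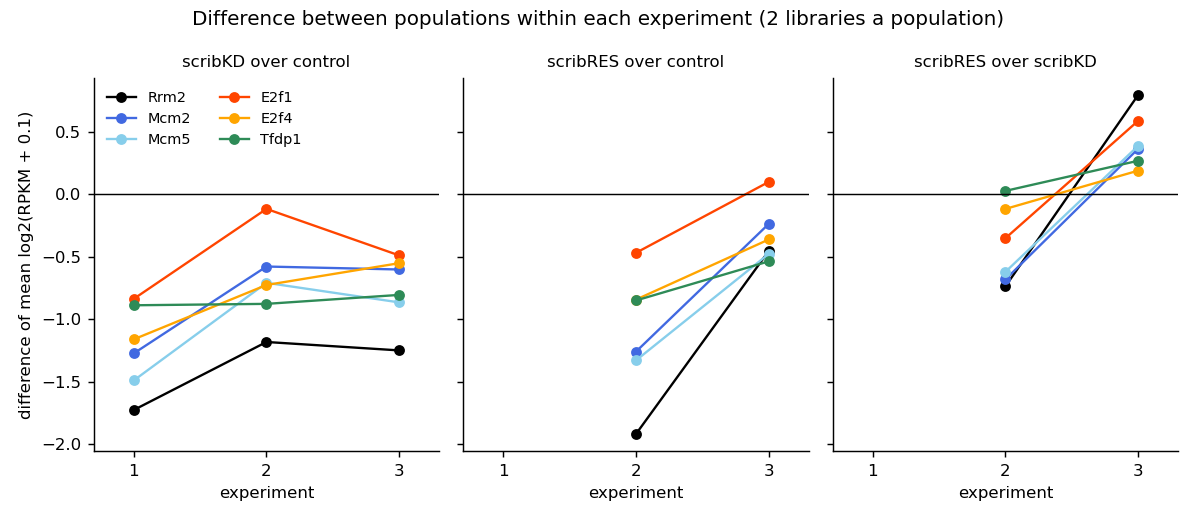
Difference of mean log2(RPKM + 0.1) between populations (y axis) within each experiment (x axis), 1 line per member, with 2 libraries per population in each mean. In scribKD over control every value is below 0, and in scribRES over scribKD 5 of 6 lines cross from below 0 in experiment 2 to above 0 in experiment 3.

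Levels also differed between experiments within a population. In control cells both libraries of experiment 2 were above both of experiment 3 for all 6 members (41.9% of 9691 transcripts), by 0.31 (E2f1) to 0.84 (Mcm2) on the log2 scale, and the same held in scribKD cells (44.7%), by 0.38 (E2f4) to 0.92 (Mcm5). In scribRES cells experiment 2 was below experiment 3 for Rrm2, Mcm2, Mcm5 and E2f1 (41.3%) and above it for E2f4 and Tfdp1 (37.5%).

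Other genes of the pathway were taken from 6 lists of 141 symbols on origin licensing, the replication fork, nucleotide supply, the E2F and RB family, G1/S cyclins and CDKs, and replication-coupled chromatin. Besides the members, 18 of these had a named transcript, 15 of them through the study's own table of transcripts that differed between knockdown and control, so their counts are not independent evidence either. In scribKD over control 15 of the 18 were tested, of which 9 were called lower, 1 higher and 5 neither, with a median log2 fold change of -0.66. In scribRES over control all 18 were tested, of which 5 were called lower, 1 higher and 12 neither, with a median of -0.44. In scribRES over scribKD 17 were tested and 1 was called, lower. With experiment as a replicate block, Rfc5 was called lower besides in scribKD over control, Cdc25a and E2f7 in scribRES over control, and in scribRES over scribKD Cdc25a was called lower (-0.87, limma adjusted p = 0.018) and Cdkn2b higher (0.60, adjusted p = 0.0072). Without a block, the backgrounds given for the members apply to calls of lower over control and to calls in scribRES over scribKD. For calls of higher over control, the background without a block was 412 of 9691 transcripts in scribKD and 438 of 10324 in scribRES. More transcripts were called in each comparison with experiment as a replicate block, so those backgrounds do not apply to its calls. In scribKD over control 1015 of 9691 were called with it, 447 of them higher. In scribRES over scribKD 757 of 10342 were called, 302 lower and 455 higher. In scribRES over control 1513 of 10324 were called, 608 lower and 905 higher.

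At the origin and the fork, Prim1, the catalytic primase subunit, fell in scribKD by 0.78 on the log2 scale (limma adjusted p = 0.00048). Pole3, an accessory subunit of DNA polymerase epsilon, fell by 0.68, and Rfc4, a subunit of the clamp loader, by 0.60. Rfc5, another clamp loader subunit, had a log2 fold change of -0.68 in scribKD that did not pass (adjusted p = 0.064) but did with experiment as a replicate block (adjusted p = 2.6e-05), and was called lower in scribRES, at -0.77 (adjusted p = 0.024). The origin recognition genes Orc2 and Orc4 lay on the other side, at 0.47 and 0.40 in scribKD, with adjusted p of 0.014 and 0.047 but under the 0.5 limit. Ticrr, needed for origin firing, was tested only in the comparisons with scribRES and not called in either. Its control libraries, at 6.08 to 12.4 RPKM, spanned more than the 2-fold limit of the filter. Within experiments 1, 2 and 3 its scribKD libraries lay below those of control, by log2 differences of -1.09, -0.69 and -0.49. Tyms, thymidylate synthase, measured -0.31 in scribKD and -0.32 in scribRES over control, under the limit in both.

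Among the E2F-linked regulators, E2f7, a repressive E2F that is itself an E2F target, fell in scribKD by 1.18 (limma adjusted p = 0.0024). It was low, at 5.35 to 9.33 RPKM in control and 2.21 to 5.33 RPKM in scribKD. Foxm1 and Mybl2, activators of later cell cycle genes, fell by 0.75 and 0.56. In scribRES over control these 3 were not called, at -0.70 (E2f7), -0.38 (Foxm1) and -0.31 (Mybl2), except E2f7 with experiment as a replicate block (adjusted p = 0.00039), and in scribRES over scribKD neither Foxm1 (0.38, adjusted p = 0.16) nor Mybl2 (0.25, adjusted p = 0.30) differed past the threshold.

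All 3 named chromatin genes fell in scribKD. Hmgb2, a high mobility group protein of dividing cells, ranged from 132 to 147 RPKM in control and from 48.0 to 60.3 RPKM in scribKD, a fall of 1.33 (SE 0.07, limma adjusted p = 3.7e-07), and measured 71.7, 70.1, 62.6 and 67.4 RPKM in scribRES. Its control and scribKD ranges were far apart, and its interaction with experiment did not pass in any of the 3 comparisons. Ezh2, a histone methyltransferase, fell by 0.78, and Hmgb1 by 0.66, the latter from a family with many near-identical copies among which reads could be split.

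Cdkn1a went the other way. It ranged from 109 to 196 RPKM in control with a median of 132, and from 437 to 758 RPKM in scribKD with a median of 594, and measured 226, 233, 194 and 195 RPKM in scribRES. Every scribKD library was above every scribRES library, and of the scribRES libraries those of experiment 2 lay above all control libraries and those of experiment 3 just below the highest. It rose by 2.06 on the log2 scale in scribKD over control (SE 0.16, limma adjusted p = 2.5e-06) and by 0.59 in scribRES over control (adjusted p = 0.027), and it was lower in scribRES than in scribKD by 1.46, a log2 fold change of -1.46 (SE 0.15, adjusted p = 0.00089). In that comparison, fitted without a block, it was the only gene of the lists that was called, while the members' log2 fold changes were 0.09 to 0.29. Within experiment 2, scribRES had both the lower Cdkn1a (226 and 233 against 687 and 636 RPKM) and the lower Rrm2, Mcm2 and Mcm5. Within experiment 3, scribRES had the lower Cdkn1a (194 and 195 against 487 and 437 RPKM) and the higher Rrm2 and E2f1. Each experiment holds 2 libraries per population, and the part of Cdkn1a in the levels of the members was not tested.

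**Figure D4:**
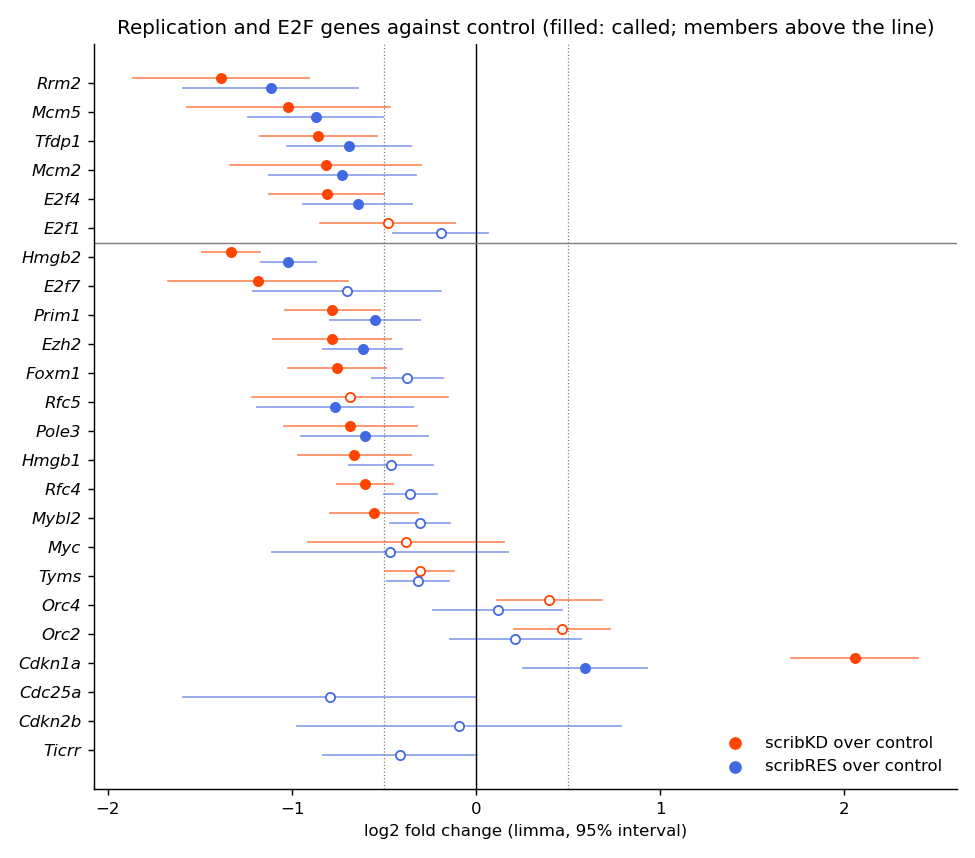
Log2 fold change (x axis) of the 6 members, above the grey line, and of the 18 other named genes of the lists, below it, in scribKD and scribRES over control, with 95% intervals from limma; filled points are called and dotted lines mark 0.5 either way. Cdkn1a is the only gene called higher, and Ticrr, Cdc25a and Cdkn2b have no scribKD point because they did not pass the filter in that comparison.

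The named transcripts whose pattern over the 16 libraries was most like that of each member were sought among the 1452 that carry a name and were tested at least once, most of which carry their name through the study's table for knockdown and control. Mcm2 and Mcm5 were nearest to each other. After Mcm5, Mcm2 was most like Fanca, a Fanconi anaemia gene of DNA repair (Pearson r = 0.977), and Erf, an ETS family repressor (0.969). Mcm5 was most like Mcm2, then Ezh2 (0.969) and Erf (0.967). Rrm2 was nearest to Cd59b (0.979), Mtch1 (0.973) and Elovl6, a fatty acid elongase (0.968), none of which is in the replication lists. For E2f1 the nearest were 2 transcripts named Fam89b (0.948 and 0.934) and Mybl2 (0.903). E2f4 was nearest to Phf19, a Polycomb-associated gene (0.979), to LOC100045999 (0.971) and to Ezh2 (0.959). Tfdp1 was nearest to Srm, spermidine synthase (0.975), to LOC100045999 (0.969) and to Ankrd32 (0.968). These coefficients come from libraries that share populations and experiments and are given as a description.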

How the data were processed

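RNA of 16 libraries was sequenced in 17 runs, since control replicate 2 was sequenced in 2 runs. Per the study's methods and processing notes, the authors trimmed reads (cutadapt 1.0), aligned them to the dog genome CanFam3.1 with TopHat2 2.0.6 and deposited RPKM values for 21571 transcripts; the kit does not mark strand. Names came from the study's tables (identifiers and names only) and RefSeq, for 1974 transcripts (9.15%); fold changes and p-values in the study's tables were not used. The members and gene lists were chosen with earlier results of these data known. Genome positions and sequences are not given here, and 1 epithelial marker is not reported here.

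The 2 runs of control replicate 2 differed by about the sampling noise (chi-square 1.118 per transcript, against 25.69 between control replicates 1 and 2) and were averaged and counted once. Transcripts were tested where all replicates of at least 1 population exceeded 5 RPKM and spanned no more than a 2-fold range. limma 3.58.1 (R 4.3.3, trend, no block) was fitted to log2(RPKM + 0.1), separately for each pair of populations as in the study, whose use of a block is not given in the sources used here, two-sided, with p-values adjusted by Benjamini-Hochberg over every transcript tested. Calls needed an adjusted p under 0.05 and a log2 fold change beyond 0.5. Fold changes on this scale understate the change of low transcripts. Population by experiment interactions were tested in limma, with the 2 libraries of an experiment as replicates. Whole reads were recovered from the steps between RPKM values (100% of values above 0 within 0.02 reads) to give depth and a limma-voom alternative. Counting errors cover counting only. The fits were tested on simulated data that had no experiment effect shared by the populations, so that test does not cover the spread between experiments.

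The labels give the experiment, which pairs libraries across populations. Deviations from the population mean correlated at a mean of 0.58, 0.34 and 0.38 between libraries of the same number (scribKD with control, scribRES with scribKD, scribRES with control). Between libraries of the same experiment but another number the means were 0.66, 0.34 and 0.37. Between experiments they were -0.31, -0.17 and -0.19. The population mean is taken over all experiments, which by itself pushes the values between experiments down. The genes named are the members, Scrib, Cdkn1a, the named and tested genes of the lists, and the 3 named transcripts most correlated with each member. Alternatives changed the pseudocount, filter, scaling, trend, replicate block, unit of replication, experiments, populations in the fit, run and replicates left out, and Python 3.11.15 made the summaries.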

Additional observations from a re-analysis of the deposited data

Results flagged for a closer look

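The difference of scribRES over scribKD changed between experiments 2 and 3 (experiment 3 minus experiment 2, log2 scale) by 1.53 for Rrm2, 1.05 for Mcm2, 1.01 for Mcm5, 0.94 for E2f1, 0.31 for E2f4 and 0.64 for Scrib, each past an adjusted p of 0.05 in limma. The difference of scribRES over control changed by 1.46 for Rrm2, 1.02 for Mcm2, 0.85 for Mcm5, 0.57 for E2f1, 0.48 for E2f4 and 0.44 for Scrib. The difference of scribKD over control changed over the 3 experiments for Mcm2 (limma interaction adjusted p = 0.032). Of the other genes of the lists, 3 of 15 tested, 12 of 17 and 10 of 18 differed between experiments in scribKD over control, scribRES over scribKD and scribRES over control, against backgrounds of 7.48%, 42.0% and 39.1% of all transcripts tested.

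Among 75 pairs of a gene and a population, 2 had 1 library apart from the others relative to the range of the population. They were Foxm1 in scribRES replicate 5 (8.77 RPKM) and Ezh2 in scribRES replicate 6 (13.0 RPKM). Both ranges were narrow, at 8.77 to 9.83 RPKM for Foxm1 and 12.1 to 13.0 RPKM for Ezh2. The limit used gives about 1 in 20 by chance for independent libraries. These libraries come in pairs by experiment, so that rate does not apply to the number found.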

How the results depend on the processing

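In scribKD over control 5 members were called; 4 were without a filter, 0 with experiment means, 3 with experiments 2 and 3 only, and 4 to 6 on leaving out 1 replicate. In scribRES over control 5 were called; 0 were with experiment means, 1 within experiment 3, 4 with experiments 2 and 3 only or all 3 populations in one fit, and 4 to 5 on leaving out 1 replicate. In scribRES over scribKD 0 were called over all experiments under every alternative, 3 within experiment 2 and 2 within experiment 3. With experiment as a replicate block, the number of members called was the same as without it. It was 5, 0 and 5 in scribKD over control, scribRES over scribKD and scribRES over control. Calls over all transcripts went from 923 to 1015, from 151 to 757 and from 815 to 1513, in the same order. With the number 1 to 6 as a replicate block, 4 members were called in scribRES over control. The interaction with experiment in scribKD over control passed for 1 member, for 0 without a filter, and for 0 to 5 on leaving out 1 replicate, an alternative chosen after seeing the data; in the other comparisons it passed for 4 to 5, with 4 without a filter in both and under median-ratio scaling in scribRES over scribKD. The block added calls of 1, 2 and 2 of the other genes of the lists in scribKD over control, scribRES over scribKD and scribRES over control and removed none.

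Some log2 fold changes turned. In scribRES over scribKD, those of Rrm2, Mcm2, Mcm5, E2f1 and E2f4 were -0.74, -0.68, -0.62, -0.35 and -0.12 within experiment 2. With either replicate block or experiments 2 and 3 only, Mcm2 was -0.16 and Mcm5 -0.12, and on leaving out 1 replicate they ranged from -0.041 to 0.24 and from -0.037 to 0.29, the lowest without scribKD replicate 1. In scribRES over control, E2f1 was 0.10 within experiment 3. The causes were not tested beyond the construction of each alternative. Depth limited E2f1 most, with 240 reads in its shallowest library.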
